A study of Arabidopsis thaliana with 8 samples.

Results

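The transcript response of wild-type Arabidopsis thaliana seedlings to 1 h of red light was read from 4 RNA sequencing libraries of 8 in the series. They were chosen by their titles: 2 libraries of Col seedlings that stayed in the dark (WT dark) and 2 of Col seedlings given red light (WT red). All were whole seedlings 4.5 days old, grown on medium with 1% sucrose. Germination was induced over 12 h in white light followed by 21 h, and the plates then stood in the dark at 22 °C for 4 days. WT red seedlings received 50 µmol of red light per square metre per second for 1 h at the end, and WT dark seedlings received none. The other 4 libraries, of red-treated phyB and phyAB mutants, entered the read filter, the scaling between libraries and the shared estimate of spread, and no comparison. With the 4 wild-type libraries alone, 4943 genes rose and 4603 fell.

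Seedlings grown in the dark are etiolated: the hypocotyl elongates, the hook stays closed and plastids remain without chlorophyll. Red light converts phytochromes, the red and far-red light receptors, into their active form, which moves to the nucleus and brings about the degradation of the PIF transcription factors that hold the dark programme in place. Known consequences are the build-up of chloroplasts, slower hypocotyl growth and a shift from reserve use to photosynthetic metabolism. The antenna, PIF-target and flavonoid genes of this transition are well described, and the account here turns to transcription factors, transporters, metabolism and genes with no symbol.

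The libraries held 20045824 and 18714337 reads in WT dark and 19760675 and 16326741 in WT red, over 27416 gene models of which 20716 had enough reads to be tested. Levels are given as CPM, the reads of a gene as a share of its library on a common scale, after TMM scaling between libraries, always in the order dark replicate 1, dark replicate 2, red replicate 1, red replicate 2. Changes are log2 fold changes of red over dark ± SE with 2 libraries per group, and a gene was called when its p-value from edgeR's quasi-likelihood test, adjusted by Benjamini-Hochberg over all tested genes, was under 0.05. The labels do not say that the replicates are separate cultures, so p-values measure the spread between these libraries only. As a check of the labelled state, all 3 markers of etiolation fell: PIL1 (AT2G46970) went from 25.4 and 25.5 to 2.23 and 2.88 CPM, PORA (AT5G54190) went from 135 and 141 to 18.2 and 21.2 CPM and HLS1 (AT4G37580) went from 12.3 and 13.2 to 2.80 and 3.70 CPM. None of 4 tested seed storage genes was called, although 1 was without red replicate 1. Of 7 root genes 2 rose and 3 fell, between −0.83 and 0.52 on the log2 scale. In whole seedlings fewer cells of a type and less RNA per cell cannot be told apart.

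Red light changed many genes by a little and fewer by a lot, and the larger changes leaned upwards. Of the tested genes 4987 (24.1%) rose and 4709 (22.7%) fell, with a median size of 0.44 on the log2 scale among called genes. At least 2-fold, 1471 genes (7.10%) rose and 559 (2.70%) fell, 9.80% in either direction, and when the test was made against 2-fold itself (glmTreat) 951 and 245 did. At least 4-fold the counts were 513 and 122, and at least 16-fold they were 82 and 9. The libraries of the 2 groups did not overlap for 14690 genes (70.9%). The median over all tested genes was 0.0022 on the log2 scale. Genes at least 2-fold higher took 2.14% and 2.15% of the reads in the dark and 8.03% and 8.02% after red light. Genes at least 2-fold lower took 2.78% and 2.77% before and 1.00% and 1.01% after.

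The upward lean was strongest among genes that were nearly silent in the dark. Of 1754 genes with a dark level under 1 CPM, 21.2% rose at least 2-fold and 4.39% fell. Of 6713 genes at 1 to 10 CPM the shares were 9.86% and 3.59%, and of 10212 genes at 10 to 100 CPM they were 3.94% and 1.81%. Among the 2037 genes above 100 CPM the order turned, with 1.77% higher and 2.75% lower. The median change went from 0.31 in the lowest of these bins through 0.07 and −0.02 to −0.12 in the highest. A gene with few dark reads passes the read filter mainly through its red libraries, so the share in the lowest bin partly follows from the filter. The bins are also drawn from the dark level, which is the denominator of each fold change. How much of the trend, and of its turn above 100 CPM, follows from this was not tested.

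**Figure D1:**
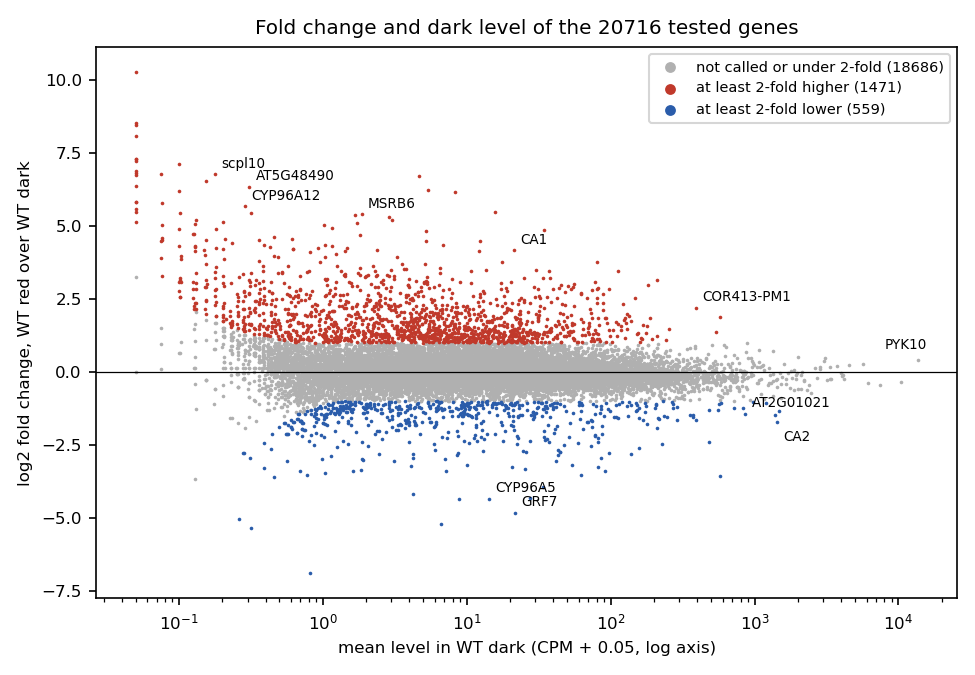
Log2 fold change of WT red over WT dark against the mean dark level in CPM (log axis) for the 20716 tested genes, 1 point per gene, with red and blue points for the 1471 and 559 genes at least 2-fold higher or lower. The tallest rises stand at the left, among genes near 0 in the dark, and genes with no dark reads form the column of points at the left edge.

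Under the naming rule, which asks for a mean of at least 5 CPM, the 15 steepest rises were those of 4 antenna genes, ELIP1, ELIP2, TT4 and STH, and of 7 others described here. These 7 encoded an acyltransferase-like protein, an aldolase, a lipid-transfer protein, a P450, a thionin and 2 redox proteins. scpl10 (AT2G23000) at chr2:9792166-9796408 led all genes that met the naming rule. It belongs to the serine carboxypeptidase-like proteins, a family whose known members include acyltransferases of secondary metabolism. Its levels were 0.200 and 0.0537 CPM in the dark libraries and 13.1 and 16.9 CPM in the red libraries, a log2 fold change of 6.77 ± 0.29 (adjusted p = 1.73e-35). Both dark libraries lay near 0, and the rule itself asks for groups that do not overlap.

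FBA5 (AT4G26530) at chr4:13390754-13393265, a fructose-bisphosphate aldolase, had 0.0501 and 0.161 CPM in the dark libraries and 10.1 and 10.3 CPM in the red libraries, a change of 6.53 ± 0.34 (adjusted p = 3.21e-30). The gene model overlaps that of FBA7 (AT4G26520) on the same strand, which also rose, by 2.17, from 1.80 and 2.47 to 9.22 and 9.97 CPM. Reads of the overlapping stretch cannot be assigned to either from these files. AT5G48490, a single-exon gene for a protein of the lipid-transfer superfamily at chr5:19647784-19648362, went from 0.250 and 0.269 to 21.4 and 21.6 CPM (6.34 ± 0.21, adjusted p = 7.45e-44). Its next gene on the chromosome, DIR1 (AT5G48485), a lipid-transfer protein known from long-distance defence signalling, went from 5.36 and 5.05 to 115 and 119 CPM (4.49 ± 0.072). The 2 neighbours thus rose side by side.

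CYP96A12 (AT4G39510) at chr4:18368685-18370698, a cytochrome P450, had 0.100 and 0.376 CPM in the dark libraries and 11.2 and 13.3 CPM in the red libraries (5.67 ± 0.27, adjusted p = 9.24e-33). THI2.2 (AT5G36910), a thionin, one of the small cysteine-rich antimicrobial peptides, had 0.0501 and 0.483 CPM in the dark libraries and 11.1 and 12.0 CPM in the red libraries (5.44 ± 0.27, adjusted p = 2.24e-31). For each, the dark replicates differed by several-fold or more at a level of a few reads. MSRB6 (AT4G04840), a methionine sulfoxide reductase that repairs oxidised methionine, was already measurable in the dark and went from 1.90 and 1.72 to 77.4 and 75.5 CPM (5.39 ± 0.10, adjusted p = 3.10e-61). CDSP32 (AT1G76080), a plastid thioredoxin-like protein known from drought, went from 1.45 and 1.93 to 59.5 and 56.4 CPM (5.10 ± 0.11, adjusted p = 1.25e-57).

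Among the 15 steepest falls under the same rule were a growth regulator, another P450, a kinase of osmotic stress signalling and several genes with no symbol. GRF7 (AT5G53660) at chr5:21794177-21796092 is a growth-regulating factor, a plant transcription factor known to repress the drought regulator gene DREB2A, and it is not the 14-3-3 gene of the same symbol. It had 23.1 and 20.1 CPM in the dark libraries and 0.932 and 0.564 CPM in the red libraries, a change of −4.81 ± 0.18 (adjusted p = 3.02e-39). Both red libraries were under 1 CPM. DREB2A (AT5G05410) itself rose, from 13.9 and 13.0 to 38.2 and 42.3 CPM (1.57 ± 0.077, adjusted p = 4.59e-32); whether the changes are connected was not tested.

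CYP96A5 (AT2G21910) at chr2:9341431-9343220 fell from 14.8 and 13.9 to 0.725 and 0.690 CPM (−4.33 ± 0.22, adjusted p = 3.00e-31). AT5G02540, a Rossmann-fold oxidoreductase-like gene, fell from 26.1 and 28.8 to 1.61 and 1.13 CPM (−4.30 ± 0.16). The CCCH zinc finger gene AT5G44260 fell from 34.7 and 33.5 to 2.49 and 1.94 CPM (−3.93 ± 0.13). Separate groups in these 3 follow from the rule that named them. SNRK2.5 (AT5G63650), a kinase of the SnRK2 family activated by osmotic stress, fell from 80.1 and 82.3 to 7.93 and 9.15 CPM (−3.26 ± 0.072, adjusted p = 1.79e-56). The EF-hand gene AT2G34020 fell from 62.8 and 61.2 to 5.49 and 5.27 CPM (−3.52 ± 0.085) and the C2-domain gene AT4G11610 fell from 88.5 and 93.6 to 8.96 and 8.53 CPM (−3.38 ± 0.070), both proteins of calcium-binding families. BETA-TIP (AT1G17810), a vacuolar aquaporin known from seeds, fell from 22.1 and 18.8 to 2.59 and 1.63 CPM (−3.25 ± 0.17).

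**Figure D2:**
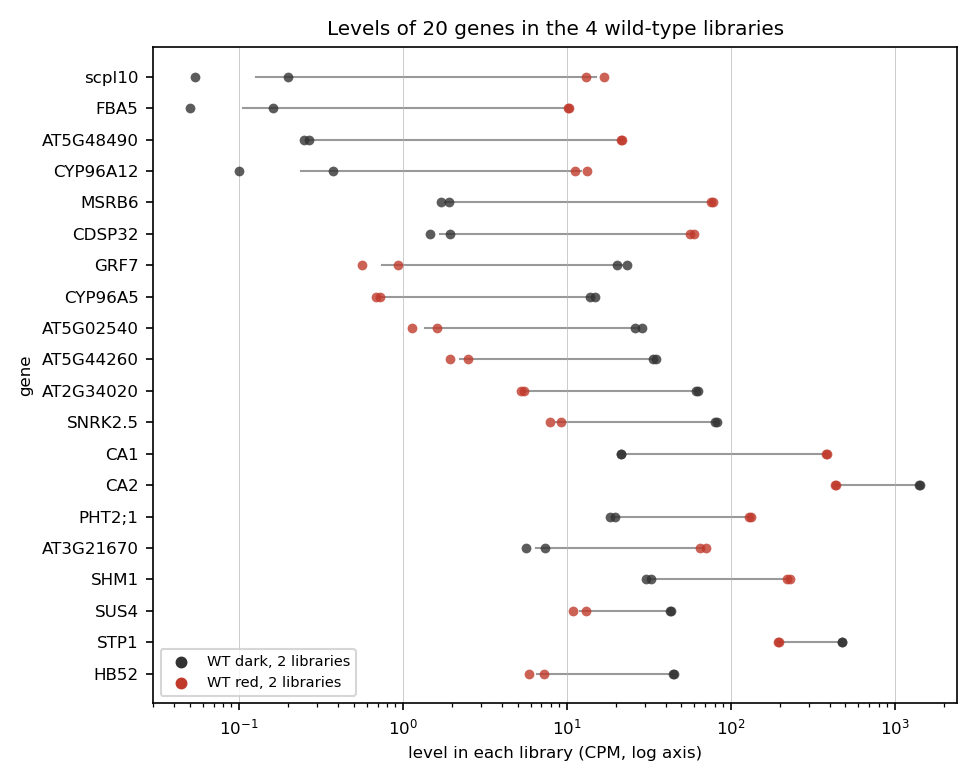
Level in CPM (log axis) of 20 genes in each of the 4 wild-type libraries, black points for WT dark and red points for WT red, with a line between the group means. For every gene drawn, from scpl10 at the top to HB52 at the bottom, the 2 points of a group lie on the same side of the other group. The groups did not overlap for 70.9% of all tested genes.

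Several of these genes stood apart from their closest relatives, a comparison chosen after their values were seen. Of the methionine sulfoxide reductases beside MSRB6 on chromosome 4, MSRB3 (AT4G04800), MSRB4 (AT4G04810) and MSRB5 (AT4G04830) had changes of 0.09, 0.09 and 0.08 and none was called (adjusted p = 0.286, adjusted p = 0.696 and adjusted p = 0.225). The relatives MSRB7 (AT4G21830), MSRB8 (AT4G21840) and MSRB9 (AT4G21850) fell, with changes of −1.36, −1.50 and −0.48. MSRB7 went from 35.5 and 35.6 to 13.8 and 13.9 CPM (adjusted p = 1.66e-27). The plastid enzyme MSRB1 (AT1G53670) rose by 0.86.

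Among the neighbours of scpl10 in its gene cluster, SCPL9 (AT2G23010) rose by 0.46 ± 0.13 and SCPL11 (AT2G22970) fell (−0.31 ± 0.043). SNG1 (AT2G22990), which makes the sunscreen ester sinapoylmalate, stands in the same cluster and rose from 363 and 353 to 630 and 639 CPM (0.82 ± 0.022). Over the carboxypeptidase-like list, 13 of 35 tested genes rose and 8 fell. Among SnRK2 kinases, the change of −3.26 in SNRK2.5 stood beside −0.16, −0.49, −0.21 and −0.50 in SNRK2.4 (AT1G10940), SNRK2.3 (AT5G66880), SNRK2.2 (AT3G50500) and SNRK2.7 (AT4G40010), which also fell.

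Promoter windows of 6 of these genes are printed because they are the extremes of fold and 2 family pairs that moved in opposite directions. Each window holds 250 bases before and 50 after the start of the first reference transcript of the gene, read 5′ to 3′ from RefSeq assembly TAIR10.1. Capitals mark matches on either strand to 4 hexamers or longer words: the G-box CACGTG bound by bZIP and bHLH factors, the I-box GATAAG of light-regulated promoters, the evening element AAAATATCT of clock-controlled genes and the TATA box TATAAA. The heat shock word GAANNTTC was searched too and occurs in none of the 6.
scpl10, chr2:9791962-9792261, plus strand: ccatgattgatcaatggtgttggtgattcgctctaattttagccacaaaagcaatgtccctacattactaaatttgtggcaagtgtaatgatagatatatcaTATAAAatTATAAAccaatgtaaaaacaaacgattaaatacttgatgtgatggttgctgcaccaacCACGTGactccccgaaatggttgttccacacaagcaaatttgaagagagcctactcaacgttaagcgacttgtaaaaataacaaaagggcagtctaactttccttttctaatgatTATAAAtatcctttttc
GRF7, chr5:21793927-21794226, plus strand: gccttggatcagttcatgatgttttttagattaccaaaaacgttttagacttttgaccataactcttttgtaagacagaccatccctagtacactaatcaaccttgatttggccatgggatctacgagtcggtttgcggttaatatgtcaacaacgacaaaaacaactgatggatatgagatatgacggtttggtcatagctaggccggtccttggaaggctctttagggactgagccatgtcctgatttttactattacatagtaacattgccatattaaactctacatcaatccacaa
CYP96A12, chr4:18370649-18370948, minus strand: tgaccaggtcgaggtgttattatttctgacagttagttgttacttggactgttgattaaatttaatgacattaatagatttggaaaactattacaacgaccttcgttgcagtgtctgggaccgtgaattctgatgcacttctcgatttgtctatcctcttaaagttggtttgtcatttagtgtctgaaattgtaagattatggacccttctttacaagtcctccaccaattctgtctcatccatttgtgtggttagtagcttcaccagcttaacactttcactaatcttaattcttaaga
CYP96A5, chr2:9341181-9341480, plus strand: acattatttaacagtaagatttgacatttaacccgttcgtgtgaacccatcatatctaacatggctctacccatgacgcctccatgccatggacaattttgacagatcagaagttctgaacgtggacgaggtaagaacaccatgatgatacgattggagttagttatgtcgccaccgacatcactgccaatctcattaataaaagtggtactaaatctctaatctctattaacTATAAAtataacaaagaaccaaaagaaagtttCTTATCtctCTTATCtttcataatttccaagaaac
CA1, chr3:197925-198224, minus strand: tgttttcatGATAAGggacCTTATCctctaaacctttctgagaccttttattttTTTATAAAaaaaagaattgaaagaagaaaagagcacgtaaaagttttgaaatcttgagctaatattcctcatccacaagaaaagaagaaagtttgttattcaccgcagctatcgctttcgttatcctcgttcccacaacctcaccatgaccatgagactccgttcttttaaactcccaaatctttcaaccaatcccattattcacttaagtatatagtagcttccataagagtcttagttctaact
CA2, chr5:4757684-4757983, plus strand: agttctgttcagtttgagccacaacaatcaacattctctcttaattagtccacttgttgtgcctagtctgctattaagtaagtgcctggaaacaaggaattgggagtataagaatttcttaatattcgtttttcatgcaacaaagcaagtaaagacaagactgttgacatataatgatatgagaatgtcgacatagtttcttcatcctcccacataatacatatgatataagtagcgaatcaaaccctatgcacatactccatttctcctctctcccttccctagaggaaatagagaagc

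That start can lie within the gene model where another transcript begins further out. It did so by 690 bases for CA1, whose window lies wholly inside its gene model, by 78 bases for CA2 and by 46 for scpl10, and of all 26710 windows 702 (2.63%) lie wholly inside. The window of scpl10 held a G-box 82 bases before the start and TATA words at 148 and 140 bases before and at 33 bases after it. That of CA1 held 2 I-boxes, at 241 and 231 bases before the start, and a stretch in which 2 TATA words overlap. In CYP96A5, which fell, 2 I-boxes lay just after the start and a TATA word 17 bases before it. The windows of GRF7, CYP96A12 and CA2 held no match. Matches were thus present and absent among genes of either direction.

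Over all genes the G-box and the I-box were more frequent in windows of risen genes than of all tested genes. The G-box was in 13.1% of 1467 windows of genes at least 2-fold higher, 9.95% of 553 windows of genes at least 2-fold lower, 8.83% of 20497 windows of tested genes and 7.80% of all 26710 windows. The I-box was in 21.3% of the higher, 16.5% of the lower, 3070 of the 20497 tested and 14.8% of all windows. Among genes at least 4-fold higher the shares were 15.4% for the G-box and 24.4% for the I-box. Among the 122 genes at least 4-fold lower they were 15.6% and 14.8%. The evening element was in 3.48% of higher, 3.80% of lower and 2.90% of tested windows. TATA words were in 49.7%, 52.8% and 51.4%, and the heat shock word in 10.6%, 10.1% and 11.6%. These are shares of letters in windows and carry no test.

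Genes that changed also stood next to one another on the chromosome, a count chosen after the values were seen. Among 13974 pairs of adjacent tested genes whose models do not overlap, both rose at least 2-fold in 110, both fell in 38 and they went in opposite directions in 55. A gene at least 2-fold higher filled 7.02% of all places in these pairs and 11.2% of the places next to such a gene. For genes at least 2-fold lower the shares were 2.69% and 10.1%. Of 8085 same-strand pairs both rose in 65, of 3732 divergent pairs in 32 and of 2157 convergent pairs in 13. Tandem copies are part of these counts, and so are genes of unlike family.

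Named pairs show both kinds. The P450 copies CYP706A5 (AT4G12310) and CYP706A6 (AT4G12320) rose by 2.84 and 2.59, and the cold-induced copies KIN1 (AT5G15960) and KIN2 (AT5G15970) by 2.50 and 3.26. The squalene epoxidase-like genes SQP1 (AT5G24150) and AT5G24155 rose by 4.53 and 4.23. MSRB6 stands beside KEA3 (AT4G04850), a thylakoid potassium and proton exchanger, which went from 5.36 and 4.83 to 69.0 and 64.1 CPM (3.71). Near-identical copies can share reads, and how reads with several matches were treated is not given in the sources used here.

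**Figure D3:**
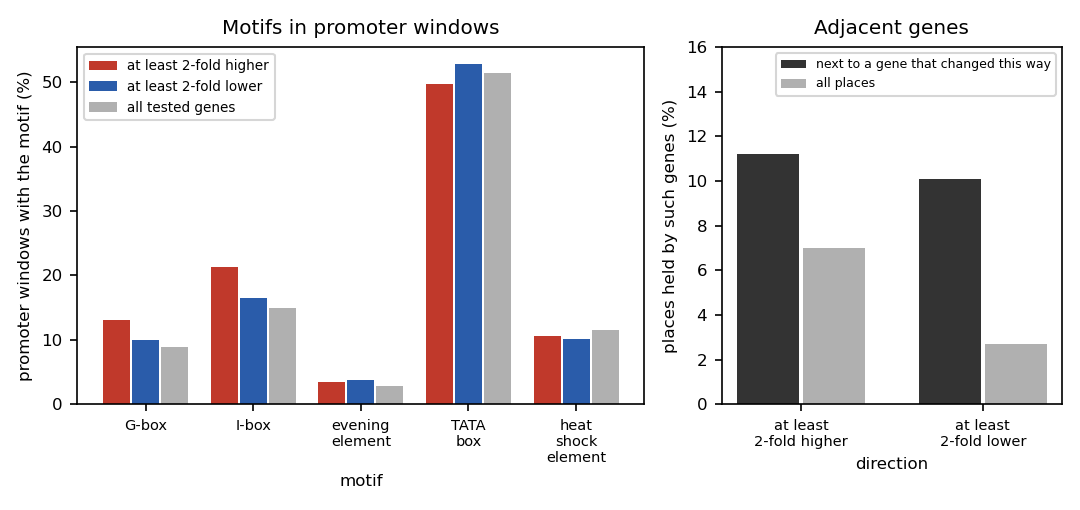
Left, share of promoter windows with each of 5 sequence words (%) among genes at least 2-fold higher (red), at least 2-fold lower (blue) and all tested genes (grey). Right, share of places in adjacent gene pairs (%) held by changed genes next to a gene that changed the same way (black) and over all places (grey), 11.2% against 7.02% for higher and 10.1% against 2.69% for lower.

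In gene structure the fallen genes differed more than the risen ones from the rest. Single-exon genes made 32.5% of 553 genes at least 2-fold lower and 293 of 1467 genes at least 2-fold higher, against 16.5% of 20498 tested genes with exons in the reference. Their median gene lengths were 1742, 2026 and 2369 bases. The median exon number was 2 for lower genes and 4 for both higher and tested genes.

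In all, 10 genes went from 0 reads in both dark libraries to at least 20 in the red libraries together. SDR1 (AT3G61220), a short-chain dehydrogenase, had 145 and 139 reads after red light, at least 102-fold higher when the dark group is taken at its floor of 3 counts. It overlaps PLIM2c (AT3G61230) on the other strand, which had 0 reads in 3 of the 4 libraries. The calcium-signalling kinase CIPK20 (AT5G45820) had 39 and 42 reads, at least 29.0-fold higher. The anthocyanin enzyme LDOX (AT4G22880) had 57 and 28, at least 30.4-fold, and the TRAF-like gene AT3G28220 had 31 and 31, at least 22.2-fold.

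The remaining genes of this kind had few reads. They were the phosphoglucomutase-like AT1G70820, with 16 and 20 reads and at least 12.9-fold higher, and the VQ-motif gene AT4G37710, with 22 and 14 reads and likewise at least 12.9-fold. AT2G15020 had 16 and 18 reads, at least 12.2-fold. The DnaJ-like AT1G71000 had 12 and 15, at least 9.67-fold, and AT1G13650 had 15 and 11, at least 9.31-fold. The stomatal peptide EPF2 (AT1G34245), which limits stomatal lineage entry, had 18 and 7, at least 8.95-fold. In the reverse direction DAU2 (AT5G39650) alone went from 24 and 6 reads in the dark to 0, at least 9.31-fold lower, and its dark replicates differed.

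Genes with 1 to 3 dark reads rose as far, within wide counting intervals. AT1G26761, a sugar hydrolase-like gene, had 2 dark reads and 282 red reads, a ratio of 151 with a 95% counting interval of 41.5 to 1257. The phosphodiesterase gene GDPD6 (AT5G08030) had 1 and 125, a ratio of 134 (23.7 to 5345). AT3G52740, annotated as uncharacterized, had 2 and 150, a ratio of 80.6 (21.9 to 671). TCL2 (AT2G30424), a small MYB that represses trichome formation, had 3 and 98, a ratio of 35.1 (11.7 to 173). GSTF12 (AT5G17220), needed for anthocyanin storage in the vacuole, had 2 and 90, a ratio of 48.3 (13.0 to 405). The intervals cover counting error only.

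By amount rather than fold, the response was carried by other genes. In RPKM, which scales reads by gene length, the largest gain was that of PYK10 (AT3G09260), a beta-glucosidase of root endoplasmic reticulum bodies, with 7525 and 7522 RPKM in the dark libraries and 9865 and 9862 RPKM in the red libraries. Its fold change was small, 0.42 ± 0.0011. The second was COR413-PM1 (AT2G15970), a cold-regulated membrane protein, with 432 and 444 RPKM in the dark libraries and 1979 and 1973 RPKM in the red libraries and a change of 2.20 ± 0.012. The dehydrin COR47 (AT1G20440) rose from 1348 and 1356 to 2236 and 2251 CPM (0.73 ± 0.0055), the plasma membrane aquaporin PIP1B (AT2G45960) from 3022 and 3043 to 3916 and 3912 CPM (0.37 ± 0.0025) and the DUF538 gene AT1G09310 from 1060 and 1078 to 1795 and 1794 CPM (0.75 ± 0.0080). The other gains among the first 12 were antenna and Rubisco genes and AT4G23670, a polyketide cyclase-like gene (0.28 ± 0.0015).

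The largest losses by amount were in an uncharacterized gene, a tonoplast aquaporin and a peroxidase. AT2G01021, an uncharacterized single-exon gene of 102 bases at chr2:6571-6672, had 8484 and 8384 RPKM in the dark libraries and 3043 and 3128 RPKM in the red libraries (−1.42 ± 0.018). In the reference it lies 625 bases after an annotated ribosomal RNA gene, at chr2:5782-5945, and what part ribosomal RNA has in its reads was not tested. The tonoplast aquaporin TIP2 (AT3G26520) had 8650 and 8601 RPKM in the dark libraries and 6699 and 6721 RPKM in the red libraries (−0.34 ± 0.0013) and the peroxidase AT2G37130 5477 and 5469 RPKM in the dark libraries and 3969 and 3968 RPKM in the red libraries (−0.44 ± 0.0011). The falls were steeper for LTP2 (AT2G38530), a lipid-transfer protein, at −1.05, for AT3G15450, of the aluminium-induced family, at −1.33 and for the gibberellin-regulated GASA4 (AT5G15230) at −1.02. The catalase CAT3 (AT1G20620) fell by 0.37, from 6168 and 6124 to 4751 and 4748 CPM.

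The 2 carbonic anhydrase genes followed, whose enzymes interconvert carbon dioxide and bicarbonate, moved in opposite directions. CA1 (AT3G01500) at chr3:194426-198664, the plastid enzyme, went from 21.4 and 21.4 to 382 and 384 CPM (4.16 ± 0.046, adjusted p = 2.21e-79). CA2 (AT5G14740) at chr5:4757856-4762666, the cytosolic enzyme, went from 1412 and 1434 to 431 and 435 CPM (−1.72 ± 0.012, adjusted p = 1.72e-94). In RPKM the pair stood at 16.1 and 16.2 RPKM in the dark libraries and 283 and 284 RPKM in the red libraries for CA1 and at 929 and 942 RPKM in the dark libraries and 278 and 281 RPKM in the red libraries for CA2. The cytosolic gene was thus far ahead in the dark and the levels were close after red light. The CA1 model overlaps LSF1 (AT3G01510) on the same strand, whose own change was 0.45 ± 0.20 (adjusted p = 0.0580) at 3.11 and 3.54 CPM against 5.18 and 3.82 CPM. Without red replicate 2 LSF1 was called, at 0.64.

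Photorespiration, the pathway that salvages the phosphoglycolate made when Rubisco binds oxygen, rose throughout. All 16 tested genes were called higher and 11 of them at least 2-fold, with a list median of 1.50 against 0.0022 for all tested genes. The lists are described by such counts and medians and carry no set test. The first enzyme, phosphoglycolate phosphatase PGLP1 (AT5G36700), went from 3.26 and 4.51 to 29.6 and 31.9 CPM (2.99 ± 0.11, adjusted p = 3.20e-40), and its near-identical copy AT5G36790 had 4.01 and 3.76 CPM against 30.6 and 31.2 CPM, so how reads divide between the copies is uncertain. In the peroxisome, the glyoxylate aminotransferase GGT1 (AT1G23310) went from 86.8 and 89.1 to 552 and 558 CPM (2.66 ± 0.032) and the hydroxypyruvate reductase HPR (AT1G68010) from 40.6 and 50.5 to 223 and 230 CPM (2.32 ± 0.045). In the mitochondrion, the glycine decarboxylase subunit GLDP1 (AT4G33010) went from 82.5 and 80.3 to 600 and 602 CPM (2.88 ± 0.032, adjusted p = 1.56e-79) and the serine hydroxymethyltransferase SHM1 (AT4G37930) from 30.3 and 32.5 to 229 and 220 CPM (2.84 ± 0.045, adjusted p = 1.73e-67). These 5 enzymes, of 3 organelles, rose by 2.32 to 2.99 on the log2 scale, and were named because their changes were the largest of the list. Their groups did not overlap, which held for 70.9% of all tested genes.

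Plastid redox genes rose as a group. All 9 tested plastid thioredoxin genes rose, 7 at least 2-fold, with a median of 1.19. TRXF1 (AT3G02730) and TRXF2 (AT5G16400), the f-type thioredoxins that activate carbon fixation enzymes in light, rose by 3.48 ± 0.12 and 2.27 ± 0.10. TRXF1 went from 3.21 and 2.63 to 32.3 and 33.0 CPM (adjusted p = 5.89e-43). The m-type genes THM1 (AT1G03680) and TRX-M4 (AT3G15360) rose by 1.73 and 1.19, and NTRC (AT2G41680), the plastid thioredoxin reductase fusion, by 1.49. Of 25 antioxidant enzymes 15 rose and 5 fell, and the highest value was 3.03. Among called members that averaged 1 CPM or more the plastid peroxiredoxin PRXQ (AT3G26060) led. It went from 6.41 and 7.25 to 48.2 and 46.5 CPM (2.80 ± 0.084, adjusted p = 1.47e-46). The summed level of the antioxidant list fell, from 8532 and 8443 to 7437 and 7434 CPM. The median of that list was 0.26.

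Antioxidant vitamins showed a similar picture at a few genes. VTC2 (AT4G26850), the GDP-galactose phosphorylase that limits ascorbate synthesis, went from 70.6 and 69.1 to 195 and 203 CPM (1.51 ± 0.039, adjusted p = 2.45e-51) and VTC4 (AT3G02870) rose by 1.45. In all, 5 of 8 ascorbate genes rose and 1 fell. VTE1 (AT4G32770), the tocopherol cyclase, rose by 1.34, whereas PDS1 (AT1G06570), which makes the shared precursor of tocopherol and plastoquinone, fell by 0.84, from 284 and 287 to 155 and 163 CPM. ANTR2 (AT4G00370), which carries ascorbate into the chloroplast, rose from 26.7 and 25.2 to 76.0 and 84.7 CPM (1.63 ± 0.057).

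Plastid construction extended to assembly, transcription and import. Of 18 thylakoid assembly and repair genes 15 rose and none fell, 9 at least 2-fold, with a median of 0.89. Among them were chlorophyllide a oxygenase CAO (AT2G47450) (2.45), the thylakoid curvature genes AT1G52220 (2.35) and AT4G01150 (1.78), and the kinase STN7 (AT1G68830) (1.74) of antenna state transitions. Of 13 partners of the plastid RNA polymerase 12 rose, 3 at least 2-fold (5 without red replicate 1), with a median of 0.69, for example PTAC7 (AT5G24314) by 1.46 and FLN2 (AT1G69200) by 1.26. Of 22 import genes 12 rose and 3 fell, with Tic62 (AT3G18890) highest at 2.57 and a median of 0.23. Of 11 plastid division genes 5 rose, none at least 2-fold.

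Starch synthesis rose moderately and sucrose genes went both ways. Of 17 starch synthesis genes 11 rose and none fell, with the ADP-glucose pyrophosphorylase subunits ADG1 (AT5G48300) at 1.50 and APL1 (AT5G19220) at 1.36 in front. In starch breakdown 8 of 16 rose and 3 fell, and 1 gene stood out: the plastid beta-amylase CT-BMY (AT4G17090) went from 1.20 and 1.56 to 12.8 and 15.6 CPM (3.36 ± 0.18, adjusted p = 7.44e-30). SUS4 (AT3G43190), a sucrose synthase known from low oxygen, fell from 43.0 and 42.3 to 10.9 and 13.0 CPM (−1.85 ± 0.084, adjusted p = 5.25e-34), and the sucrose-phosphate synthase SPS2F (AT5G11110) rose from 48.2 and 43.1 to 132 and 130 CPM (1.52 ± 0.046, adjusted p = 8.61e-47). TPS1 (AT1G78580), which makes the sugar signal trehalose phosphate, rose by 1.46.

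Plastid membrane lipid genes held some of the larger metabolic changes. Of 14 membrane lipid and desaturase genes 9 rose and 3 fell, with a median of 0.37. FADA (AT4G27030), the desaturase of plastid phosphatidylglycerol, went from 1.70 and 1.13 to 26.1 and 28.0 CPM (4.24 ± 0.14, adjusted p = 2.34e-43). FAD8 (AT5G05580) and FAD7 (AT3G11170), the plastid omega-3 desaturases, rose by 3.28 and 1.17, and FAD5 (AT3G15850) by 2.28. MGDC (AT2G11810), a galactolipid synthase known from phosphate starvation, fell by 1.47, from 3.96 and 4.19 to 1.92 and 0.940 CPM. Of 16 plastid fatty acid synthesis genes 7 rose, with a median of 0.07, and only the acyl carrier protein ACP4 (AT4G25050) rose at least 2-fold, from 19.9 and 17.4 to 137 and 139 CPM (2.88 ± 0.055, adjusted p = 3.75e-61).

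Surface lipid genes rose broadly and by less. Of 25 wax and cutin genes 20 rose and 3 fell, 5 at least 2-fold, with a median of 0.44. The cutin genes LACS2 (AT1G49430) and GPAT4 (AT1G01610) rose by 1.85 and 1.03. The wax alkane gene CER3 (AT5G57800) went from 163 and 166 to 354 and 368 CPM (1.13 ± 0.032, adjusted p = 1.02e-48). Among acyltransferases, DCF (AT3G48720), needed for ferulate in cutin, rose by 2.66 and RWP1 (AT5G41040), which adds ferulate to suberin, went from 70.5 and 71.7 to 209 and 211 CPM (1.56 ± 0.039). Without dark replicate 2 only 2 of the 25 rose at least 2-fold, and without red replicate 2 only 3 of the 25, and GPAT4 and KCS2 (AT1G04220) stood close to 2-fold, at 1.03 and 1.02.

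Specialised metabolism gave smaller lists. Of 18 general phenylpropanoid and lignin genes 14 rose and 1 fell, with 4CL3 (AT1G65060) highest at 3.14 and a median of 0.30. In the shikimate pathway 10 of 14 rose and none reached 2-fold. Of 10 tested aliphatic glucosinolate genes 3 rose, led by their regulator MYB28 (AT5G61420) (1.62). Of 9 indolic glucosinolate genes 5 rose, with the regulator MYB34 (AT5G60890) going from 76.2 and 75.6 to 169 and 165 CPM (1.14 ± 0.039, adjusted p = 6.83e-43) and the P450 CYP81F2 (AT5G57220) at 1.46. Sulfate assimilation went both ways by small amounts, 5 of 18 higher and 8 lower.

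Iron genes went both ways. Of 21 tested 9 rose and 6 fell, 5 (23.8%) and 1 (4.76%) at least 2-fold, against 7.10% and 2.70% of all tested genes. NEET (AT5G51720), a plastid iron-sulfur protein, rose by 3.79 ± 0.35, from 0.401 and 0.215 to 4.35 and 4.45 CPM. The chloroplast ferric reductase FRO7 (AT5G49740) rose by 2.46 ± 0.33, from 1.05 and 0.269 to 4.14 and 3.26 CPM, and the ferritins FER3 (AT3G56090) and FER4 (AT2G40300), which store iron in plastids, by 1.85 and 1.05. NAS2 (AT5G56080), which makes the iron carrier nicotianamine, fell by 1.01, from 13.4 and 13.7 to 6.79 and 6.58 CPM, and the iron transporter IRT2 (AT4G19680) changed by −0.91. The remaining gene at least 2-fold higher, the nicotianamine synthase gene NAS3 (AT1G09240), had 2 and 0 reads in the dark libraries and 10 and 7 in the red libraries, and was not called without dark replicate 2. The FER4 model overlaps another gene on the same strand.

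**Figure D4:**
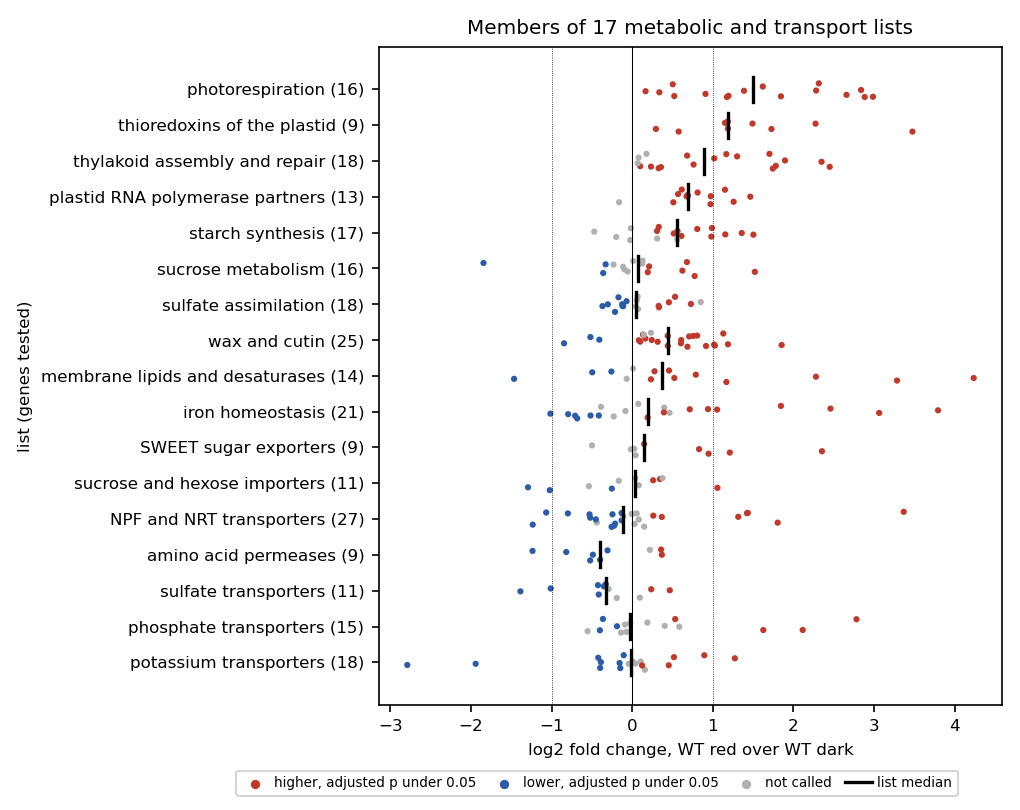
Log2 fold change of each tested member of 17 lists of metabolism and transport, 1 point per gene, red or blue when called higher or lower and grey when not, with a black bar at the list median and dotted lines at 2-fold. Photorespiration has its median at 1.50 and all 16 points to the right of 0, and amino acid permeases have theirs at −0.40.

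Phosphate and nitrate carriers went both ways. Of 15 phosphate transporters 4 rose and 3 fell: PHT2;1 (AT3G26570) of the plastid envelope went from 18.4 and 19.5 to 129 and 132 CPM (2.78 ± 0.054, adjusted p = 4.45e-61) and PHT4;1 (AT2G29650) of the thylakoid rose by 2.12 ± 0.083. PHT1;1 (AT5G43350), a root uptake transporter, fell by 0.19. In the NPF and NRT family of nitrate and peptide carriers 7 of 27 rose and 12 fell. The family member AT3G21670 led, from 7.36 and 5.64 to 70.1 and 64.6 CPM (3.37 ± 0.082, adjusted p = 1.54e-53), and the glucosinolate importer GTR1 (AT3G47960) and the phloem nitrate carrier NRT1.7 (AT1G69870) rose by 1.43 and 1.32.

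Sugar carriers went both ways and amino acid permeases leaned down, where 24.1% of all tested genes rose and 22.7% fell. Of 9 tested SWEET sugar exporters 5 rose, or 3 without dark replicate 1, without red replicate 1 and with DESeq2, with SWEET1 (AT1G21460) at 1.21 and the vacuolar fructose carrier SWEET17 (AT4G15920) going from 98.7 and 99.6 to 190 and 193 CPM (0.95 ± 0.036, adjusted p = 3.81e-39). Of 11 sucrose and hexose importers 3 rose and 3 fell. The hexose symporter STP1 (AT1G11260) fell from 479 and 480 to 194 and 197 CPM (−1.29 ± 0.030, adjusted p = 3.09e-55), and the sucrose carrier SUC1 (AT1G71880) rose by 1.06. Of 9 amino acid permeases 6 fell and 2 rose, with a median of −0.40. LHT1 (AT5G40780), a main importer of amino acids, fell from 75.2 and 72.9 to 41.2 and 42.9 CPM (−0.82 ± 0.053, adjusted p = 2.28e-24). UMAMIT amino acid exporters were mixed, 10 of 37 higher and 13 lower, with UMAMIT46 (AT3G28070) at 2.58.

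For minerals, 6 of 11 sulfate transporters fell and 2 rose, with SULTR3;1 (AT3G51895) at −1.39, where 22.7% of all tested genes fell and 24.1% rose. Of 18 potassium transporters 8 fell (5 without red replicate 1) and 5 rose: KT5 (AT4G32500) fell from 3.91 and 4.40 to 0.829 and 0.313 CPM (−2.79 ± 0.33, adjusted p = 7.67e-12) and KT2/3 (AT4G22200) rose by 1.27. Zinc, iron and copper transporters were even, 11 of 37 higher and 12 lower (10 and 9 without red replicate 1), with ZIP11 (AT1G55910) and YSL1 (AT4G24120) at 1.50 and 1.50.

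ABC, MATE and major facilitator genes each gave more rises than falls, and EamA-like transporters were even. Over all tested genes 24.1% rose and 22.7% fell, and at least 2-fold 7.10% and 2.70%. In that order, 8.91%, 13.3%, 14.2% and 11.4% of these families rose at least 2-fold. The shares that fell at least 2-fold were 0.990%, 6.67%, 1.89% and 6.82%. Of 101 ABC transporters 33 rose and 24 fell, 9 of the risen at least 2-fold. ABCI20 (AT5G02270) and ABCI21 (AT5G44110) rose by 1.99 and 1.72, ABCG16 (AT3G55090) by 1.87 and the suberin-linked ABCG6 (AT5G13580) by 1.58. ABCG15 (AT3G21090) fell furthest, from 132 and 132 to 45.8 and 47.8 CPM (−1.50 ± 0.045, adjusted p = 8.33e-47). Of 45 MATE efflux genes 18 rose and 8 fell, with DTX1 (AT2G04040) at 1.70. Of 106 major facilitator genes 39 rose and 28 fell, 15 of the risen at least 2-fold. Of 44 EamA-like transporters 12 rose and 13 fell, or 11 and 10 without red replicate 2.

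Among transcription factors the direction differed from family to family. Over all tested genes 24.1% rose and 22.7% fell, and at least 2-fold 7.10% and 2.70%. AP2/ERF factors leaned down in number, with 17 of 96 higher, 36 lower (22 without red replicate 1) and a median of −0.14. At least 2-fold the family did not lean down, with 10 higher (10.4%) and 9 lower (9.38%). The cold regulator DREB1A (AT4G25480) rose by 2.48 ± 0.40, from 0.250 and 0.591 to 2.64 and 2.01 CPM. SNZ (AT2G39250), a repressor of flowering, rose by 1.83, whereas AT1G44830 fell by 1.76, from 4.11 and 3.38 to 1.09 and 1.13 CPM. WRKY factors, known mainly from defence, had 19 of 60 lower and 10 higher. At least 2-fold 3 of them rose and 0 fell, and their changes ran from −0.90 to 1.95. WRKY60 (AT2G25000) stood at −0.90 and WRKY70 (AT3G56400) at −0.75. WRKY56 (AT1G64000) and TTG2 (AT2G37260) rose, with gains in level of 1.63 and 0.93 RPKM, which are amounts and not log2 fold changes. bZIP factors had 14 of 38 lower and 5 higher, with bZIP44 (AT1G75390) at −1.43. Of 13 GRAS factors 6 fell, all by less than 2-fold, and of 21 LBD factors 7 fell.

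MYB, TCP and NF-Y factors leaned the other way. Of 90 MYB factors 31 rose and 14 fell (8 without dark replicate 1 and 9 with DESeq2), 12 and 3 at least 2-fold. MYB47 (AT1G18710) rose by 3.16 ± 0.44, from 0.250 and 0.269 to 2.12 and 2.63 CPM, and MYB41 (AT4G28110), a regulator of suberin, by 2.35 ± 0.18, from 1.90 and 1.99 to 10.2 and 9.65 CPM. MYB10 (AT3G12820) fell by 2.16. Of 77 NAC factors 22 rose and 11 fell, but the count of rises hung on single libraries and was 14, 9 and 13 without dark replicate 1, dark replicate 2 and red replicate 1, and 10 with DESeq2. With dark replicate 2 left out the order turned, 9 higher and 12 lower. RD26 (AT4G27410), induced by drought and abscisic acid, went from 21.6 and 24.3 to 76.9 and 70.1 CPM (1.68 ± 0.060, adjusted p = 1.14e-41), and NAP (AT1G69490), known from leaf senescence, fell by 1.19. Of 17 TCP factors 11 rose, with a median of 0.46. TCP10 (AT2G31070), TCP3 (AT1G53230) and TCP4 (AT3G15030), which promote leaf cell differentiation, rose by 1.99, 1.42 and 0.78, and TCP15 (AT1G69690) fell by 0.83. Of 28 NF-Y factors 10 rose (5 without dark replicate 2), with NF-YB3 (AT4G14540) and NF-YB2 (AT5G47640), known from flowering, at 1.44 and 0.89.

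Homeobox and bHLH factors went both ways. Of 45 homeobox factors 17 fell and 13 rose, 6 and 2 at least 2-fold. HB52 (AT5G53980) fell from 44.7 and 44.6 to 7.25 and 5.89 CPM (−2.75 ± 0.090, adjusted p = 4.03e-44). Of 92 bHLH factors 29 fell and 23 rose, 6 and 9 at least 2-fold: AT3G21330 fell from 24.2 and 24.9 to 3.26 and 4.33 CPM (−2.71 ± 0.13, adjusted p = 8.27e-33) and AT3G61950 rose by 2.39. SPL9 (AT2G42200), which promotes the passage to adult growth, rose by 2.82 ± 0.42 from a low level, 0.200 and 0.430 CPM against 2.28 and 2.19 CPM. CDF1 (AT5G62430), a Dof repressor of flowering, rose by 1.70 and CDF3 (AT3G47500) by 1.23, and CDF2 (AT5G39660) fell by 0.48. COL1 (AT5G15850) of the CONSTANS-like family rose by 1.38, and LBD21 (AT3G11090) by 2.66.

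Heat stress factors rose in 9 of 20 cases and fell in 3. HSFA2 (AT2G26150), HSFA6A (AT5G43840) and HSFA6B (AT3G22830) rose by 2.33, 2.22 and 1.80, and HSFA6A went from 8.77 and 8.38 to 39.9 and 40.4 CPM (adjusted p = 2.54e-38). HSFA1D (AT1G32330), of the class that starts the heat response, was not called (0.16 ± 0.093, adjusted p = 0.153).

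**Figure D5:**
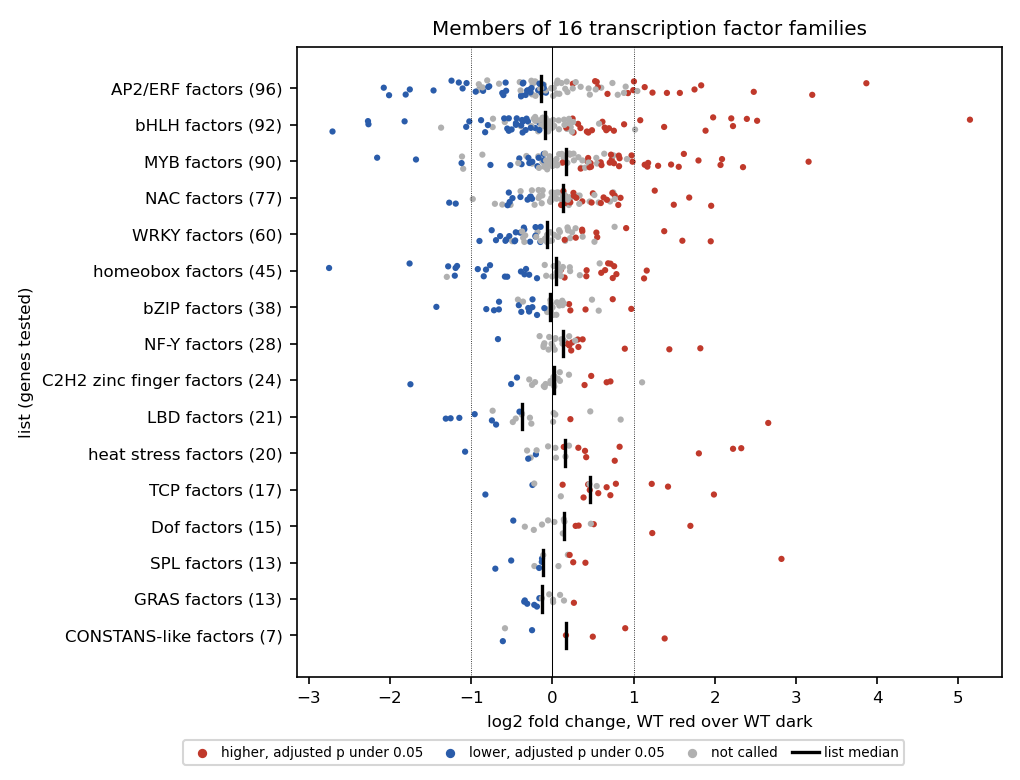
Log2 fold change of each tested member of 16 transcription factor families, 1 point per gene, red or blue when called higher or lower and grey when not, with a black bar at the family median and dotted lines at 2-fold. TCP factors have the highest of the drawn medians, 0.46, and LBD factors the lowest, −0.38.

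Some stomatal lineage genes rose from low levels. SPCH (AT5G53210), the bHLH factor that starts the lineage, went from 0.601 and 0.913 to 4.04 and 4.70 CPM (2.52 ± 0.29, adjusted p = 1.61e-12), the receptor-like TMM (AT1G80080) rose by 1.22 and the peptide gene STOMAGEN (AT4G12970), which promotes stomata, by 0.99. The third tested factor of the lineage list was not called. The levels of SPCH and of EPF2 rest on few reads per library.

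In abscisic acid signalling most of the tested phosphatases rose and the receptors went both ways. Of 9 PP2C phosphatases, which restrain the pathway, 8 rose and none fell, with a median of 0.75. HAI1 (AT5G59220) went from 28.6 and 31.3 to 75.3 and 75.8 CPM (1.34 ± 0.055, adjusted p = 8.30e-37), and HAI2 (AT1G07430) and HAI3 (AT2G29380) rose by 1.36 and 1.29. Of 9 PYL receptors 2 rose and 3 fell, from −0.73 in PYL5 (AT5G05440) to 0.55 in PYL1 (AT5G46790). KAI2 (AT4G37470), the karrikin receptor, which promotes seedling responses to light, went from 23.8 and 23.0 to 78.6 and 88.3 CPM (1.83 ± 0.058, adjusted p = 4.20e-45).

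Calcium and kinase genes changed in both directions, as did all tested genes, of which 24.1% rose and 22.7% fell. Of 35 CIPK and CBL genes 16 rose and 4 fell, 3 of the risen at least 2-fold. CIPK20, with no dark reads, was one of these 3. CIPK19 (AT5G45810) stood at 2.16 and the calcium sensors CBL10 (AT4G33000) and CBL1 (AT4G17615) at 1.29 and −0.89. Of 13 calmodulin-like genes 5 fell and 2 rose, 1 each at least 2-fold (2 lower without red replicate 1), with CML37 (AT5G42380) at 2.44. Of 147 leucine-rich repeat kinases 41 fell and 34 rose, 2 (1.36%) and 6 (4.08%) at least 2-fold, against 2.70% and 7.10% of all tested genes. FLS2 (AT5G46330), the flagellin receptor, fell from 18.6 and 20.5 to 6.94 and 6.65 CPM (−1.52 ± 0.11, adjusted p = 2.30e-21). Among cell cycle genes the D-type cyclin CYCD3;2 (AT5G67260) rose by 1.09.

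Intracellular resistance genes rose in a subset. Of 115 tested TIR and NBS-LRR genes 39 rose and 32 fell, but at 2-fold the counts were 20 (17.4%) and 2 (1.74%). The shares over all tested genes were 7.10% and 2.70%. Without dark replicate 2 the order turned, with 33 higher and 34 lower, and 20 and 1 at 2-fold. SNC1 (AT4G16890) went from 16.9 and 16.8 to 59.6 and 60.9 CPM (1.84 ± 0.067, adjusted p = 7.88e-41) and its cluster neighbour RPP4 (AT4G16860), for downy mildew resistance, rose by 1.99. WRR4 (AT1G56510), for white rust resistance, went from 0.551 and 0.215 to 6.99 and 8.34 CPM (4.27 ± 0.29, adjusted p = 1.33e-23) and AT1G66090 rose by 3.17. These genes form near-identical clusters, so reads can be shared. Of 10 tested immune signalling genes 4 rose and 1 fell, with the salicylic acid synthesis gene EDS16 (AT1G74710) at 1.27.

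Photolyases, which use light to repair DNA damaged by ultraviolet, did not move together. CRY3 (AT5G24850), the cryptochrome-like photolyase of organelles, went from 2.66 and 2.47 to 20.2 and 21.8 CPM (3.02 ± 0.13, adjusted p = 4.59e-35) and PHR1 (AT1G12370) went from 1.00 and 0.913 to 3.73 and 4.70 CPM (2.12 ± 0.28, adjusted p = 2.49e-10). UVR3 (AT3G15620), which repairs the other main class of lesions, fell by 0.58 (adjusted p = 3.75e-04).

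Enzyme families showed both directions within a family. Of 165 tested P450 genes 61 rose and 56 fell, 18 and 9 at least 2-fold. The 9 became 4 without dark replicate 1 and also 4 with DESeq2. In the CYP96A group the rise of CYP96A12 and the fall of CYP96A5 stood beside CYP96A1 (AT2G23180), which rose, at 0.56 and CYP96A4 (AT5G52320), not called, at −0.20. CYP97A3 (AT1G31800), a carotene hydroxylase, rose by 2.57 and CYP81D8 (AT4G37370) by 2.27. Of 55 UDP-glycosyltransferases 25 rose and 15 fell, 11 of the risen at least 2-fold. DOGT1 (AT2G36800), which glucosylates brassinosteroids, rose by 3.44 ± 0.25, from 0.902 and 0.591 to 8.60 and 7.77 CPM. Of 43 glutathione S-transferases 16 rose and 10 fell (6 without red replicate 1), with GSTF3 (AT2G02930) at −2.98, from 2.00 and 1.66 to 0.207 and 0.251 CPM, and ERD9 (AT1G10370) rising by 1.89.

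GDSL lipases, esterases of surface and storage lipids, leaned up, with 27 of 58 higher and 7 lower. At least 2-fold 13 rose (22.4%), against 7.10% of all tested genes. AT1G29660 went from 10.8 and 10.6 to 89.1 and 85.7 CPM (3.03 ± 0.066, adjusted p = 4.35e-57). Class III peroxidases, secreted enzymes of the cell wall, leaned down, with 28 of 54 lower, 15 higher (8 without dark replicate 2) and a median of −0.30. At 2-fold 7 fell (13.0%) and 5 rose (9.26%), against 2.70% and 7.10% of all tested genes. AT5G19890 fell by 1.99, from 3.11 and 3.49 to 0.881 and 0.752 CPM, and AT2G34060 rose by 2.43. Pectin lyase-like genes were even, 13 of 53 higher and 11 lower, with AT1G48100 at 3.62. Of all tested genes 24.1% rose and 22.7% fell. Among 2-oxoglutarate dioxygenases 21 of 77 fell and 15 rose, or 14 and 15 without red replicate 1, and AT1G77330 fell from 162 and 153 to 25.7 and 26.1 CPM (−2.60 ± 0.050, adjusted p = 3.89e-61).

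DnaJ, pentatricopeptide repeat and ribosomal protein genes gave more rises than falls, and over all tested genes the shares were 24.1% and 22.7%. At least 2-fold, 12.2%, 6.56% and 4.01% of these families rose, against 7.10% of all tested genes. The shares that fell at least 2-fold were 1.35%, 0.410% and 0.00%, against 2.70%. Of 74 DnaJ proteins 25 rose and 15 fell. After AT1G71000, which had no dark reads, the largest rises were those of 3 plastid proteins: NdhU (AT5G21430) (3.44) and NdhT (AT4G09350) (3.38) of the NADH dehydrogenase-like complex and LQY1 (AT1G75690) (3.12) of photosystem repair. Of 244 pentatricopeptide repeat proteins, which process organelle RNA, 47 rose and 8 fell (4 without red replicate 1 and with DESeq2), with AT3G04760 at 2.11. Of 324 ribosomal protein genes 83 rose and 38 fell, the rises becoming 53 and 55 without dark replicates 1 and 2 and 51 with DESeq2. Of them 13 (4.01%) rose at least 2-fold, with the plastid proteins PSRP3/1 (AT1G68590) and GHS1 (AT3G27160) at 2.05 and 1.35. Of 98 tested genes whose product name contains the plastid 64 rose and 9 fell, with a median of 0.58. CRB (AT1G09340), a chloroplast RNA-binding protein, went from 12.9 and 14.4 to 153 and 151 CPM (3.48 ± 0.057, adjusted p = 1.88e-66).

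Protein degradation genes changed in both directions, as did all tested genes, of which 24.1% rose and 22.7% fell. Few rose far: 2.18% of RING and U-box proteins and 4.64% of F-box genes rose at least 2-fold, against 7.10% of all tested genes. Falls of at least 2-fold made 1.31% and 2.58%, against 2.70%. Of 229 RING and U-box proteins 48 fell and 40 rose (31 and 23 with DESeq2, 36 and 37 without red replicate 2), with AT4G10160 at −2.39 and AT5G47610 at 2.26. Of 194 tested F-box genes 34 fell (22 with DESeq2) and 24 rose. The F-box gene AT1G20790 fell from 9.27 and 8.32 to 0.363 and 0.502 CPM (−4.35 ± 0.28, adjusted p = 1.46e-24), and AT1G73120 fell by 2.38.

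Genes with no symbol in the reference changed in both directions. Of 11779 such genes 2472 rose and 2429 fell, 706 (5.99%) and 296 (2.51%) at least 2-fold. Those shares lie near the ones over all tested genes, 7.10% and 2.70%. The order of the first pair turned without dark replicate 1 (1940 and 2386), without dark replicate 2 (1917 and 2397) and with DESeq2 size factors (2378 and 2565). The largest rises after AT5G48490 included AT3G56290, annotated as a potassium transporter, from 1.30 and 0.913 to 33.6 and 33.8 CPM (4.91 ± 0.14, adjusted p = 9.38e-49), and AT2G34620, of the mitochondrial transcription termination factor family, from 0.902 and 0.215 to 14.2 and 12.4 CPM (4.53 ± 0.23). The berberine-family oxidase AT1G26380 went from 0.551 and 0.591 to 8.75 and 12.8 CPM (4.21 ± 0.25). The rule that named these asks for groups that do not overlap, and the dark libraries of AT2G34620 and the red libraries of AT1G26380 differed between replicates. AT3G57020, a phosphotriesterase-like gene, went from 1.95 and 2.74 to 43.6 and 40.6 CPM (4.17 ± 0.12) and the WD40 repeat gene AT3G06880 from 0.751 and 1.61 to 19.4 and 19.3 CPM (4.05 ± 0.17).

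Of 1193 tested genes whose product is annotated only as uncharacterized, 236 rose and 260 fell. At least 2-fold 96 (8.05%) rose and 45 (3.77%) fell, near the 7.10% and 2.70% of all tested genes. AT1G21500 at chr1:7529705-7531108 rose from 1.35 and 2.15 to 43.7 and 45.2 CPM (4.67 ± 0.12, adjusted p = 8.93e-53). AT5G56850 at chr5:22985115-22988110 rose from 1.15 and 1.07 to 22.4 and 22.1 CPM (4.31 ± 0.16, adjusted p = 4.08e-40). AT1G15840 at chr1:5451432-5452374 fell from 10.7 and 9.29 to 1.09 and 1.13 CPM (−3.17 ± 0.22, adjusted p = 1.44e-22). That the groups of these 3 did not overlap follows from the rule that named them.

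Further falls among genes with no symbol were those of AT4G25580, a CAP160 protein, from 82.3 and 87.8 to 13.0 and 8.59 CPM (−2.95 ± 0.080), of AT3G54830, a transmembrane amino acid transporter, from 42.0 and 43.4 to 5.91 and 6.14 CPM (−2.83 ± 0.092), and of the ARM repeat gene AT3G18530, from 43.3 and 40.4 to 4.87 and 5.39 CPM (−3.03 ± 0.10). The last overlaps AT3G18535 on the same strand, which fell by 0.96. Among all genes that met any of the rules for naming genes, 109 of 465 overlap another gene model, 94 of them on the other strand. The strandedness of the libraries is not given in the sources used here.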

How the data were processed

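Each deposited file lists reads per gene model as whole-number counts, per the file headers. The RPKM values deposited beside them, per the file headers, scale the reads by gene length and library total. The submitters' processing notes name build TAIR10. Which aligner and counter were used, how reads with several matches were handled and whether the libraries are stranded is not given in the sources used here. Symbols, products, positions and promoter windows come from RefSeq assembly TAIR10.1, which lists 26719 of the 27416 gene models.

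The counts were tested with edgeR 4.0.16 in R 4.3.3: filterByExpr with a minimum count of 10, TMM scaling, one model of 4 group means over all 8 libraries, and the quasi-likelihood F-test of WT red minus WT dark with Benjamini-Hochberg adjustment at 0.05. CPM are scaled by library total and TMM. Each standard error was taken from the fold change and the F value as |log2 fold change| over the root of F. Where a group had 0 reads, the fold was set against a floor of 3 counts over that group, and a gene with 1 to 3 reads has a 95% exact binomial counting interval. The comparison, the gene lists and the tests were chosen with earlier results of these data known. The text names genes from these rules: called genes with no overlap between groups and at least 5 CPM on average (the 15 highest and 15 lowest, and 8 and 8 among genes with no symbol), up to 5 called members of each list that averaged 1 CPM or more, the 12 largest gains and losses in RPKM, the 10 genes with most reads in each group, and genes with 0 reads in one group and at least 20 in the other. Genes with 1 to 3 dark reads, relatives, neighbours and overlapping genes were named after their values were seen. The variance between replicate libraries was 1.47 (dark) and 1.34 (red) times that of counting error, and edgeR's common biological coefficient of variation came to 1.59%. On simulated counts for the 20716 tested genes of this comparison, the test recovered 54%, 74%, 92% and 100% of genes changed by 1.25, 1.5, 2 and 4-fold (50 genes each), and 3.03% of its calls were false. The simulation changed no other genes, drew the changed ones from those at 1 CPM or more, and took its spread from these same libraries. In the data 46.8% of tested genes were called, so its rates need not hold there or for genes under 1 CPM. DESeq2 1.42.0 served as an alternative.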

Additional observations from a re-analysis of the deposited data

How the results depend on the processing

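The counts of called genes, 4987 higher and 4709 lower, kept within 1.5 times under all 9 alternatives to the scaling, filter, libraries and tool, the smallest being 3912 and 3730 with DESeq2. At 2-fold the counts moved by more in 1 alternative, the glmTreat test against 2-fold, with 951 higher and 245 lower, because that test asks for a change beyond 2-fold. With 1 library left out in turn, 3999 to 4494 genes were higher and 3836 to 4731 lower, and at 2-fold 1384 to 1461 and 526 to 581. The lone library of a group is then assumed to vary like the others. Replicate 1 libraries did not deviate together (r = 0.0133 over genes), so the numbers are not taken to pair the samples, and a replicate block gave 4976 higher and 4704 lower. Of the 229 tested genes followed by name, 2 changed their call: LSF1 was called at 0.46 when no filter on low counts was applied and at 0.64 without red replicate 2, and NAS3 was no longer called without dark replicate 2, at 2.16. No direction turned. Over 86 lists and 9 alternatives the order of higher and lower counts turned in 15 of 774 combinations, in 9 lists.

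With a 4-fold threshold, 5 of 12 shares moved beyond their 95% interval: the G-box to 15.4% (higher) and 15.6% (lower), the I-box to 24.4% (higher), the evening element to 2.46% (lower) and the heat shock word to 7.38% (lower). The last 2 rest on 3 and 9 genes. Depth limits genes under 1 CPM, where a library holds under 20 reads and a dark level of a few reads sets the fold.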

Other observations

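The genes with most reads changed little. After PYK10 (AT3G09260), the most read in both groups were TIP2 (AT3G26520), AT2G37130, CAT3 (AT1G20620), AT4G23670 and PBP1 (AT3G16420), a jacalin-like partner of PYK10, which rose by 0.23. Among the 10 most read in the dark, the polyubiquitin gene UBQ3 (AT5G03240) had a change of −0.09 and the major latex protein genes MLP34 (AT1G70850) and MLP28 (AT1G70830) had −0.24 and −0.04. NSP1 (AT3G16400), which directs glucosinolate breakdown to nitriles, entered the first 10 only after red light, at 0.47.

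Further lists gave counts in both directions, as did all tested genes, of which 24.1% rose and 22.7% fell, 7.10% and 2.70% at least 2-fold. Of 12 phosphate starvation genes 3 rose and 4 fell (7 without dark replicate 2), of 25 cysteine-rich receptor kinases 6 rose and 8 fell, 3 and 2 at least 2-fold, and of 36 RALF, CLE and EPF peptides 8 rose and 6 fell, 3 of the risen at least 2-fold. Of 46 HXXXD acyltransferases 13 rose and 12 fell, 5 and 3 at least 2-fold, the count of falls being 7 without red replicate 1 and 6 with DESeq2. Of 45 cyclins and CDKs 8 rose and 6 fell. The order turned in 5 alternatives: 7 and 8 under DESeq2 size factors, 5 and 7 without dark replicate 1, 5 and 6 without dark replicate 2, 4 and 5 without red replicate 1, and 4 and 5 with DESeq2.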
